A study of Mus musculus with 185 samples.

Results

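Untraced non-myocyte cells of the scar were compared, gene by gene, with lineage-traced descendants of Tcf21-expressing cells after myocardial infarction (MI) in mice. The scar class holds the cells that the labels name as untraced, activated, negative for CD31 and CD45 and from scar. Of these 29 cells, the 24 with at least 300 genes above 5 TPM were kept. They stand against all 44 activated Tcf21-traced cells, so the comparison holds 68 cells, 36.8% of the cells of the series. Values are in TPM, a share of all transcripts of a cell, and genes above 5 TPM are called detected.

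The study followed the origin of cardiac myofibroblasts with inducible Cre alleles and profiled single cells on the Fluidigm C1 system. Cells were sorted as negative for CD31, CD45 and the dead-cell dye 7-AAD, and the eGFP of each captured cell was read by microscopy on the chip. The traced cells come from Tcf21-MCM/+; R26-eGFP mice, in which tamoxifen lets a Cre made from the Tcf21 locus switch on eGFP for good. The paper places the activated cells at 1 week after MI. Other classes are quoted in places for comparison. Of these, the resident cells come from uninjured hearts. The activated Postn-traced and Postn-negative cells come from Postn-MCM/+; R26-eGFP mice, according to the paper. All cells come from C57BL/6 backcrossed mice of about 5 months of age. No label names a capture, so captures were read from the prefix of the cell names. It is Nov11 for the scar cells and Nov4 for the Tcf21-traced cells. The labels give neither the tracer allele nor the time after MI for the cells of the scar capture, and they give no sex. A cell without eGFP can also be a descendant in which Cre did not recombine. The scar cells share their capture with 3 cells labelled activated Postn+ CD31- CD45-, and the Tcf21-traced cells share theirs with 19 such cells. These 22 Postn-positive cells were used to show how a gene behaves in other cells of the same captures.

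Cardiac fibroblasts arise in the embryo mostly from the epicardium, the mesothelial sheet around the heart, and Tcf21 is a transcription factor of that lineage and of resident fibroblasts. Wt1, a zinc finger transcription factor, marks the embryonic epicardium and comes on again in the epicardium of the injured adult heart. Mural cells, which are the pericytes of capillaries and the smooth muscle cells of larger vessels, lie beside these fibroblasts in the scar and share several contractile genes with myofibroblasts.

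The labels name no cell type for the scar cells. All of them carried fibroblast markers, although cell 74, described below, also held most pericyte markers. Each of the 24 scar cells and each of the 44 Tcf21-traced cells held at least 3 of 10 fibroblast markers above the minimum, with medians of 8 and 9 markers per cell. Dcn, Col1a1, Col1a2 and Col3a1 were detected in all 24 scar cells. Pecam1, the gene of CD31, was detected in 0 of the 24 scar cells and Ptprc, the gene of CD45, in 0. A count of 0 in 24 cells allows a share of up to 14.2% at 95% confidence, and this and all later intervals cover counting error only. Postn, the myofibroblast gene for periostin, was detected in 20 of the 24 scar cells although these carry no Postn+ label.

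The classes were alike in the number of genes detected, which stands in for depth because the reads behind each cell are not known. The lowest, median and highest numbers were 1560, 3230.5 and 4394 genes in the scar cells and 1815, 3134 and 5023 in the Tcf21-traced cells. These ranges overlap almost wholly. The median scar cell thus had 18.8% of the 17171 genes of the table above the minimum, against 18.3%. Just outside the threshold lay scar cells with 244 and 264 genes, and just inside lay 1560 and 1747, so any threshold within this gap keeps the same cells.

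**Figure D1:**
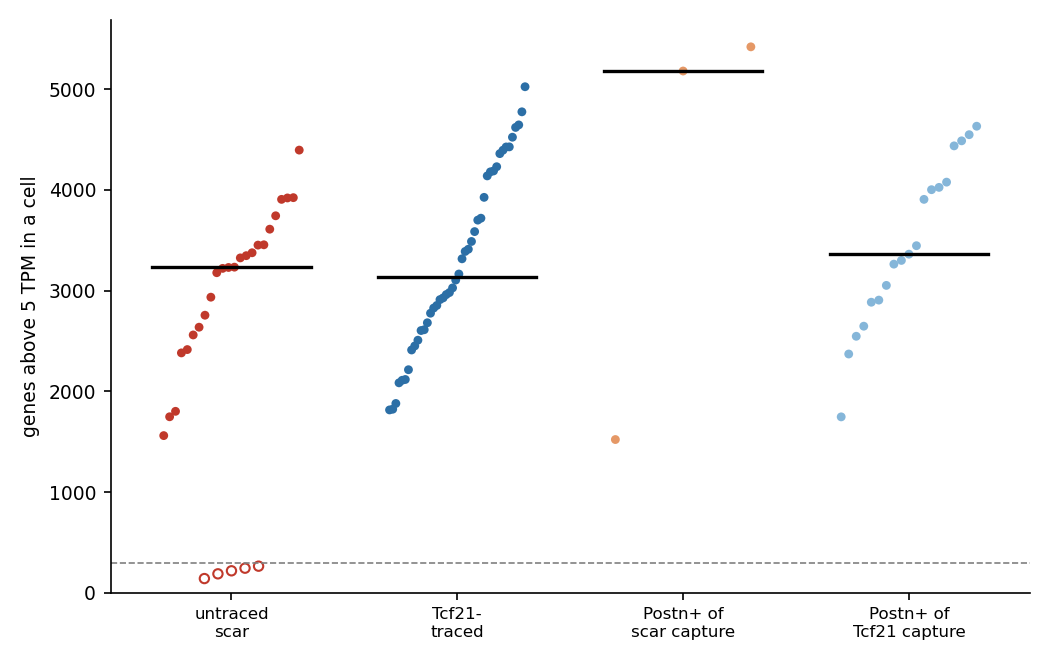
Genes above 5 TPM in each cell. Filled points are the 24 untraced scar cells, the 44 Tcf21-traced cells and the Postn-positive cells of the scar capture (3) and of the Tcf21 capture (19). Open circles are the 5 scar cells left out, the dashed line is the threshold of 300 genes, and black bars are medians.

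The plot of gene numbers shows that the 5 cells left out lie far below every other cell, so the threshold falls in a wide gap.

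Across the genome the scar cells as kept differed from the Tcf21-traced cells more often downward than upward. Class values are means over cells of log2 (TPM+1), and a difference is that of the scar class minus the Tcf21-traced class in log2 units. Among the 9063 genes detected in at least 10% of the cells of either class, 52 (0.574%) were more than 2 units higher in the scar cells and 131 (1.45%) more than 2 units lower. More than 1 unit higher were 558 genes (6.16%), and 1108 (12.2%) were more than 1 unit lower. The median difference of all 9063 genes was -0.16, and differences ran from -4.13 to 4.25. No label names the mouse of a cell, so each class counts as 1 sample and no test was run.

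Single cells scattered widely around these means. The median SD of a gene was 2.47 between scar cells and 2.41 between Tcf21-traced cells. Of the 183 genes past 2 units, 2 had a difference larger than the SD of both classes and 44 larger than that of at least 1. Leaving out the 13 scar cells with haemoglobin Hba-a2, described below, took the counts to 258 genes higher and 82 lower. These 13 include all 3 scar cells with fewer than 2000 genes, numbers 71, 84 and 86, whose 50 most abundant genes hold 57.9, 42.6 and 38.6% of their TPM, against at most 31.6% in a Tcf21-traced cell. Leaving out only the cells of both classes with fewer than 2000 genes gave 101 higher and 96 lower, and leaving out holders of a marker list other than fibroblast gave 132 and 132. The surplus of lower genes therefore depends on which cells are kept. By the cell names the classes were captured separately, and capture and kind of cell cannot be told apart.

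**Figure D2:**
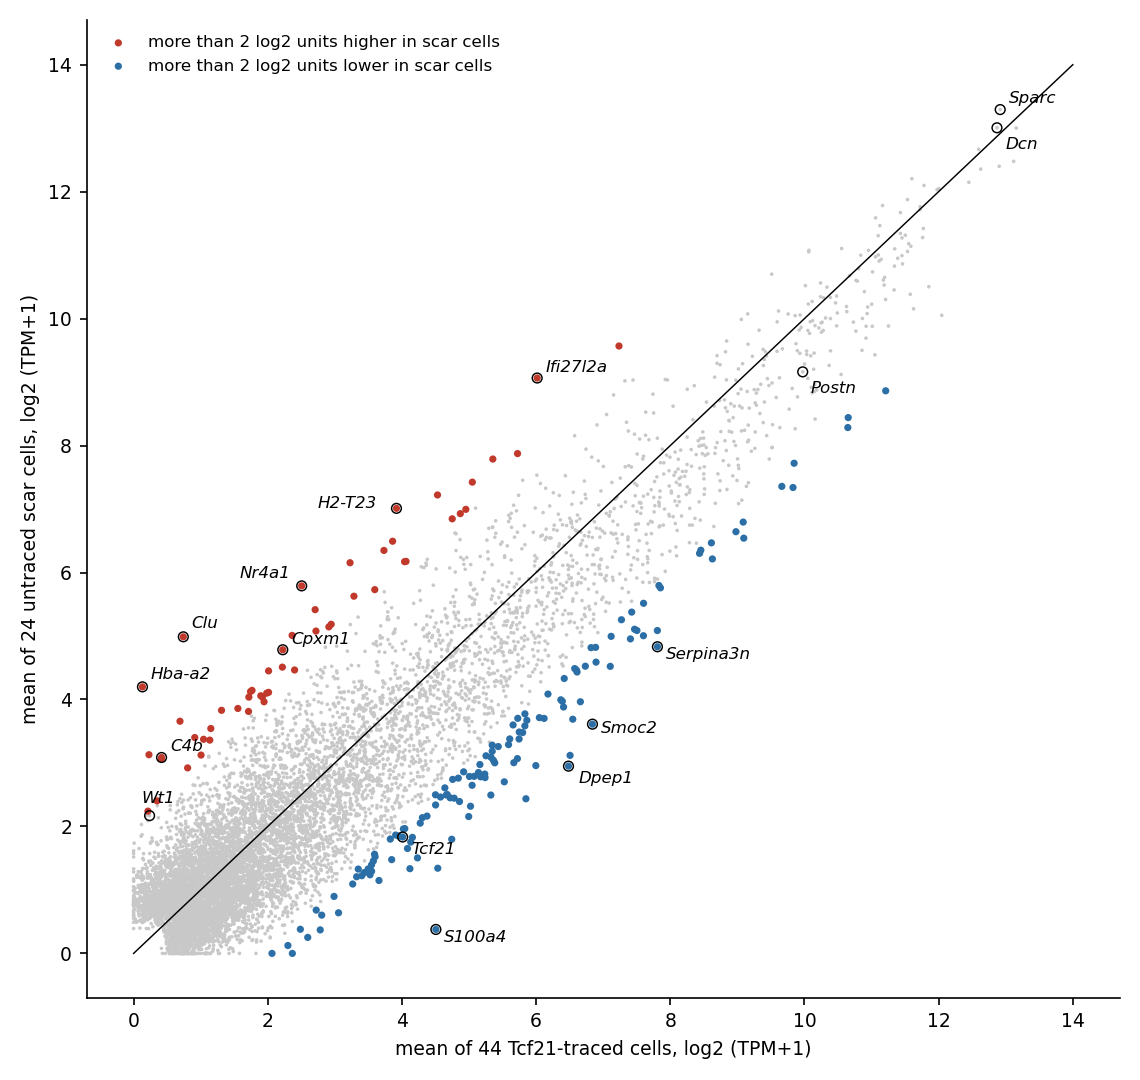
Class means of log2 (TPM+1) over the 9063 genes, for the 44 Tcf21-traced cells (horizontal) and the 24 untraced scar cells (vertical). Red and blue points lie more than 2 log2 units above and below the line of equal means, and named genes are ringed. Abundant genes such as Sparc and Dcn lie close to the line.

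The most abundant transcripts were largely shared, as the plot of class means shows at its upper end. Sparc, a collagen-binding matricellular protein, was the highest gene of the scar cells at 13.29 against 12.92. Dcn, a small proteoglycan that binds collagen, followed at 13.01 against 12.87. Of all genes, 128 were detected in every scar cell, 168 in every Tcf21-traced cell and 82 in every cell of both.

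The leading genes were taken from those detected in at least 50% of cells on the side with the higher mean. Upward in the scar cells, the first 15 were Clu (4.25), Hba-a2 (4.07), Nr4a1 (3.28), H2-T23 (3.09), Ifi27l2a (3.05), Slc20a1 (2.93), Zbtb20 (2.71), Tiparp (2.65), Gadd45b (2.63), Zfp36l2 (2.62), Cpxm1 (2.56), Nr4a2 (2.52), Gbp7 (2.49), Nsmce2 (2.44) and a transcript with only a cDNA clone name. Several act in the early response to stimulation: Nr4a1 and Nr4a2 are orphan nuclear receptors, Gadd45b responds to stress, and Zfp36l2 is an RNA-binding protein that promotes mRNA decay. H2-T23 is a non-classical MHC class I molecule, Gbp7 an interferon-induced GTPase and Slc20a1 a phosphate transporter. Clu encodes clusterin, a secreted chaperone.

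Clu was the largest rise and came from a subset of cells. Its lowest, median and highest values were 0, 2.25 and 14.04 in the scar cells and 0, 0 and 7.25 in the Tcf21-traced cells. It was detected in 12 of 24 (50%, 29.1 to 70.9%) and in 4 of 44 (9.09%, 2.53 to 21.7%). The classes overlap at 0, but 10 scar cells stand above the highest Tcf21-traced cell. In the Postn-positive cells the mean of Clu was 2.08 in the scar capture and 1.08 in the Tcf21 capture.

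Nr4a1 was present in most scar cells. Its lowest, median and highest values were 0, 6.32 and 9.91 against 0, 0.70 and 9.72, and it was detected in 20 of 24 scar and 17 of 44 Tcf21-traced cells. The ranges coincide while the medians lie far apart. The 3 Postn-positive cells of the scar capture also had it, at a mean of 5.92 against 2.26 in the 19 of the Tcf21 capture. Nr4a2 was at 7.46 against 1.45 in the same cells and Slc20a1 at 6.28 against 2.14.

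For H2-T23 the lowest, median and highest values were 0, 8.17 and 10.32 in scar cells and 0, 4.13 and 11.28 in Tcf21-traced cells, and for Ifi27l2a, an interferon-inducible gene, 0, 10.47 and 14.14 and 0, 8.01 and 13.21. For both genes the ranges overlap from end to end. MHC class I genes resemble each other in sequence, and so do the members of the Ifi27 family and the alpha globins, and how reads that match several of them were shared out is not given.

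The Postn-positive cells of the same captures, which share no cell with the comparison, pointed the same way for most of these genes. Of the 52 genes more than 2 units higher in the scar cells, 35 (67.3%) were also higher in the 3 Postn-positive cells of the scar capture than in the 19 of the Tcf21 capture, against 52.2% of all 9063. Of the 131 lower genes, 83 (63.4%) were also lower there, against 46.6%. With 3 cells on 1 side these shares are descriptions. Of the 3, cell 83 had 1521 genes and 65.3% of its TPM in its 50 most abundant genes, while the others had 5179 and 5419 genes.

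The 15 genes with the largest fall in the scar cells were S100a4 (-4.13), Dpep1 (-3.53), Eif3l (-3.41), Ndufs8 (-3.39), Smoc2 (-3.23), Mrps36 (-3.19), Gorasp2 (-3.04), Serpina3n (-2.98), Pfdn1 (-2.94), Wdr1 (-2.86), Chmp3 (-2.84), Psmc4 (-2.83), Smim7 (-2.82), Nsfl1c (-2.78) and a transcript with only a cDNA clone name. Eif3l is a subunit of a translation initiation factor, Ndufs8 of respiratory complex I, Pfdn1 of the chaperone prefoldin and Psmc4 of the proteasome. Gorasp2 shapes the Golgi stack, and Wdr1 helps to take actin filaments apart.

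S100a4, a calcium-binding protein also known as fibroblast-specific protein, had the largest fall. It was detected in 1 of 24 scar cells (4.17%, 0.105 to 21.1%), at 9.06, and was listed at 0 in the other 23. In the Tcf21-traced cells its lowest, median and highest values were 0, 5.50 and 10.38. In the scar capture S100a4 was detected in 2 of the 3 Postn-positive cells, at a class mean of 5.21. These were cells 78 and 80, at 6.10 and 9.53. They had 5419 and 5179 genes, against at most 4394 in a scar cell. Cell 83, with 1521 genes, was at 0. The mean of S100a4 in the 19 of the Tcf21 capture was 4.28.

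Smoc2, a secreted matricellular protein related to Sparc, and Dpep1, a membrane dipeptidase, are genes of resident cardiac fibroblasts. The lowest, median and highest values of Smoc2 were 0, 3.09 and 10.52 in scar and 0, 7.56 and 11.80 in Tcf21-traced cells, and it was detected in 13 of 24 and 37 of 44. In the 17 resident Tcf21-traced cells, from uninjured hearts, its class mean was 10.30. Dpep1 had values of 0, 0 and 11.01 against 0, 8.27 and 11.69, with a mean of 7.67 in the same resident cells. Both classes span the range from 0 upward for both genes, and more scar cells lie at 0. Serpina3n, a secreted protease inhibitor, was detected in 15 of 24 and 37 of 44.

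**Figure D3:**
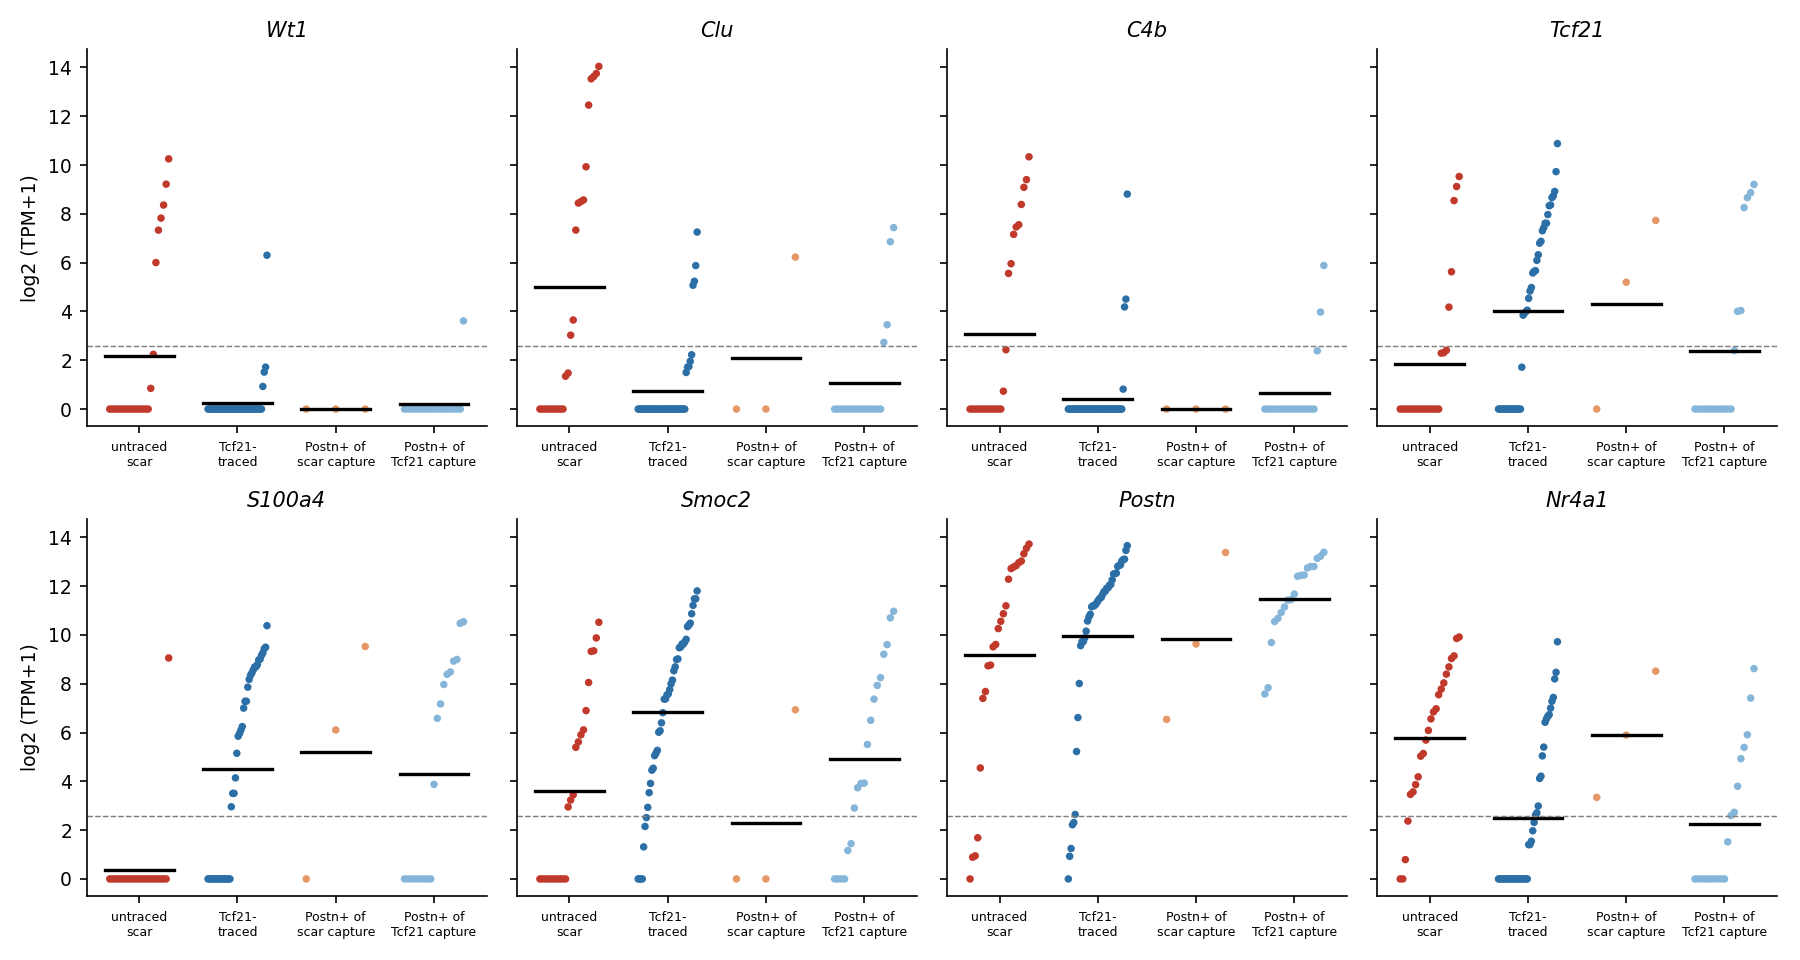
Values of 8 genes in every cell of the 4 classes. Each point is 1 cell, ordered by value within its class, black bars are class means, and the dashed line is the detection minimum of 5 TPM. Wt1, Clu and C4b are high in subsets of the scar cells, S100a4 is at 0 in all scar cells except 1, and Postn is detected in every Postn-positive cell and in most cells of the other classes.

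The plot of single cells shows that the share of cells with a gene differed for Wt1, Clu, C4b, Nr4a1, Smoc2 and Tcf21 alike, and that all 6 genes have cells at 0 in both classes.

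Genes seen on 1 side only were also counted. At least 4 scar cells and at most 1 Tcf21-traced cell had 96 of the 9063 genes (1.06%). Ordered by number of cells, the first were Hba-a2 in 13, Ddx60 and Tshz2 in 8 each, then Mier2, Zfp940, Ptpn13, Mr1 and Nr4a3 in 7 each. Wt1, Col6a5, Col6a6, Adamtsl1 and Fbxl6 followed with 6 scar cells each, and a further pair among the 15 carries only cDNA clone names. The 15 end within a tie, since Col18a1 also had 6 scar cells and is not among them. Col6a5 and Col6a6 encode alternative chains of collagen VI, and neither was detected in any of the 44 Tcf21-traced cells (up to 8.04%). Col6a5 was below the minimum in the 2 main resident classes, in which 7 of 17 Tcf21-traced and 5 of 12 CD31- CD45- cells had Col6a6. Nr4a3 belongs with Nr4a1 and Nr4a2, Ddx60 is a helicase induced by interferon, and Mr1 is an MHC-like molecule that presents metabolites.

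At least 11 Tcf21-traced cells and at most 1 scar cell had 53 genes (0.585%). After S100a4 came Ccnd1, the gene of cyclin D1, and Psmd10 with 19 Tcf21-traced cells each. The others of the first 15 were Crcp (18), Alg3, Haus7, Leo1, 1500011K16Rik and Cdc37l1 (16 each), Cav2 and Mphosph10 (15 each), and Ddx3y, Golm1, Nup85 and Cdc34 (14 each). Ccnd1 was detected in 1 scar cell and in 1 of the 3 Postn-positive cells of the scar capture. Ddx3y lies on the Y chromosome and is taken up with the sex-linked genes.

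Wt1 was detected in 6 of the 24 scar cells (25%, 9.77 to 46.7%) and in 1 of the 44 Tcf21-traced cells (2.27%, 0.0575 to 12%). The class means were 2.17 and 0.24, a difference of 1.93 that lies below the SD of 3.63 between scar cells. The lowest, median and highest values were 0, 0 and 10.25 in the scar cells and 0, 0 and 6.30 in the Tcf21-traced cells. Most cells of both classes are at 0, and 5 of the 6 scar cells stand above the highest Tcf21-traced cell. Wt1 was detected in 0 of the 3 Postn-positive cells of the scar capture, 1 of 19 of the Tcf21 capture, 2 of 27 activated Postn-traced, 1 of 24 activated Postn-negative, 0 of 17 resident Tcf21-traced and 0 of 12 resident CD31- CD45- cells.

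The other epicardial markers did not come with Wt1 as a set. Of the 14 markers listed, 13 are in the table, and their median difference was 0.07. Of these, 1 was more than 1 unit higher (Wt1, beside 6.16% of all genes) and 0 lower (12.2%). Their TPM summed to a mean of 205 per scar cell and 31.5 per Tcf21-traced cell, means that a few cells carried, since the medians of the sum were 9.56 and 2.69 TPM. Wt1 was the most abundant in the scar cells and Aldh1a2 in the Tcf21-traced cells. The mesothelial surface genes Upk3b and Upk1b and the keratins Krt8, Krt18 and Krt19 were at 0 in all 24 scar cells. Msln and Rspo1 were below the minimum in all of them. Lrrn4 and Bnc1, a zinc finger factor of mesothelium, were each detected in 1 scar cell, and Gpm6a, a membrane glycoprotein, in 2.

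Aldh1a2 and Tbx18 were not limited to the scar cells. Aldh1a2, which makes retinoic acid, was detected in 7 of 24 scar cells and 10 of 44 Tcf21-traced cells. Tbx18, a transcription factor of the embryonic epicardium and of mural cells, was detected in 4 and 11. At least 3 epicardial markers were held by 2 of 24 scar cells (8.33%, 1.03 to 27%) and by 0 of 44 Tcf21-traced cells (up to 8.04%). The fullest scar cell held 5.

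The values of the 6 Wt1 cells, singled out after their values were seen, show cells that differ from each other. In falling order of Wt1 they carry the numbers 68 (10.25), 73 (9.22), 74 (8.36), 85 (7.83), 81 (7.33) and 76 (6.00). Aldh1a2 was detected in 4 of the 6, at 8.84, 2.77, 8.89 and 5.29 in cells 68, 73, 85 and 81. Tbx18 was detected in 0. Cell 81, which had the most genes of the class, held 5 epicardial markers, with Gpm6a at 9.03, Lrrn4 at 3.96 and Bnc1 at 3.27. Cell 76 held no epicardial marker other than Wt1.

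All 6 Wt1 cells carried fibroblast collagen transcripts. Col1a1 lay between 5.64 and 12.02 in them and Col3a1 between 9.52 and 11.88. Postn was detected in 4, up to 12.72 in cell 74. Tcf21 was detected in 0 of the 6 and in 5 of the 18 scar cells without Wt1. The single Tcf21-traced cell with Wt1 lacked Tcf21 mRNA and all other epicardial markers.

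Clu was at 13.75, 13.63, 13.53 and 12.46 in Wt1 cells 68, 73, 85 and 81, at 8.50 in cell 74 and at 0 in cell 76. Over the class, 5 of the 6 Wt1 cells and 7 of the 18 others had Clu. C4b, a complement component, was detected in 5 of the 6 and 4 of the 18, and Col6a5 and Col6a6 each in 4 of the 6 and 2 of the 18. All 6 scar cells with Col6a6 had Clu. These joint counts describe 24 cells of 1 capture and were not tested.

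Pericyte genes came together most fully in a single scar cell. At least 3 of 12 pericyte markers were held by 2 of 24 scar cells (8.33%, 1.03 to 27%) and by 9 of 44 Tcf21-traced cells (20.5%, 9.80 to 35.3%). No Tcf21-traced cell held more than 4, whereas scar cell 74 held 9. Its values were 11.89 for Rgs5, a regulator of G protein signalling typical of pericytes, 8.73 for the potassium channel Kcnj8 and 10.78 for Vtn (vitronectin). It is also a Wt1 cell and held 5 of 10 smooth muscle markers, with Acta2 at 9.47, Actg2 at 9.13 and Myh11, the smooth muscle myosin, at 5.37. It had the lowest Col1a1 of the class, at 5.64, with Postn at 12.72.

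Outside that cell some pericyte genes were missing and others were not. Rgs5, Vtn, Higd1b, Colec11 and Des were each detected in 1 scar cell, cell 74, and Cspg4, the gene of NG2, and Mcam were at 0 in all 24 (up to 14.2%). Cspg4 was detected in 8 of the 44 Tcf21-traced cells. Kcnj8 was detected in 4 of 24 scar cells, numbers 74, 75, 85 and 88, against 2 of 44. Cell 88 held 4 pericyte markers, with Kcnj8 at 7.72, Abcc9 at 5.68, Pdgfrb at 8.28 and Ndufa4l2 at 4.05. Pdgfrb, the PDGF receptor shared by mural cells and fibroblasts, was detected in 13 of 24 and 26 of 44. Ndufa4l2 had the highest mean TPM of the pericyte markers in both classes, at 396 in scar and 288 in Tcf21-traced cells. Its class means in log2 units ran the other way, at 3.03 and 4.43. The median difference of the 12 markers was 0.25, with 0 more than 1 unit higher (6.16% of all genes) and 1 lower (Ndufa4l2, beside 12.2%). It turned to -0.13 without cell 74 and to -0.13 without the cells with Hba-a2. The summed level of the markers averaged 819 TPM against 443, but a few scar cells carried that mean, with Ndufa4l2 at 12.90 in cell 84. The medians of the sum ran the other way, 56 TPM in scar and 387 in Tcf21-traced cells.

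Contractile genes did not rise as a group in the scar cells. The 10 smooth muscle markers had a median difference of 0.12, with 1 more than 1 unit higher (Mylk, 1.04), beside 6.16% of all genes. The 2 lower, beside 12.2% of all genes, were Smtn (-1.56) and Acta2 (-1.57). At least 3 of the 10 were held by 3 of 24 scar cells (12.5%, 2.66 to 32.4%) and 11 of 44 Tcf21-traced cells (25%, 13.2 to 40.3%). Their summed level averaged 316 TPM against 477, with Tagln the most abundant in both classes, whereas the medians of the sum ran the other way, 220 against 129 TPM. Myocd, the master activator of smooth muscle genes, was at 0 in every cell of both classes. Acta2 had lowest, median and highest values of 0, 0 and 10.14 in scar and 0, 2.45 and 11.10 in Tcf21-traced cells, which overlap over the whole range.

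**Figure D4:**
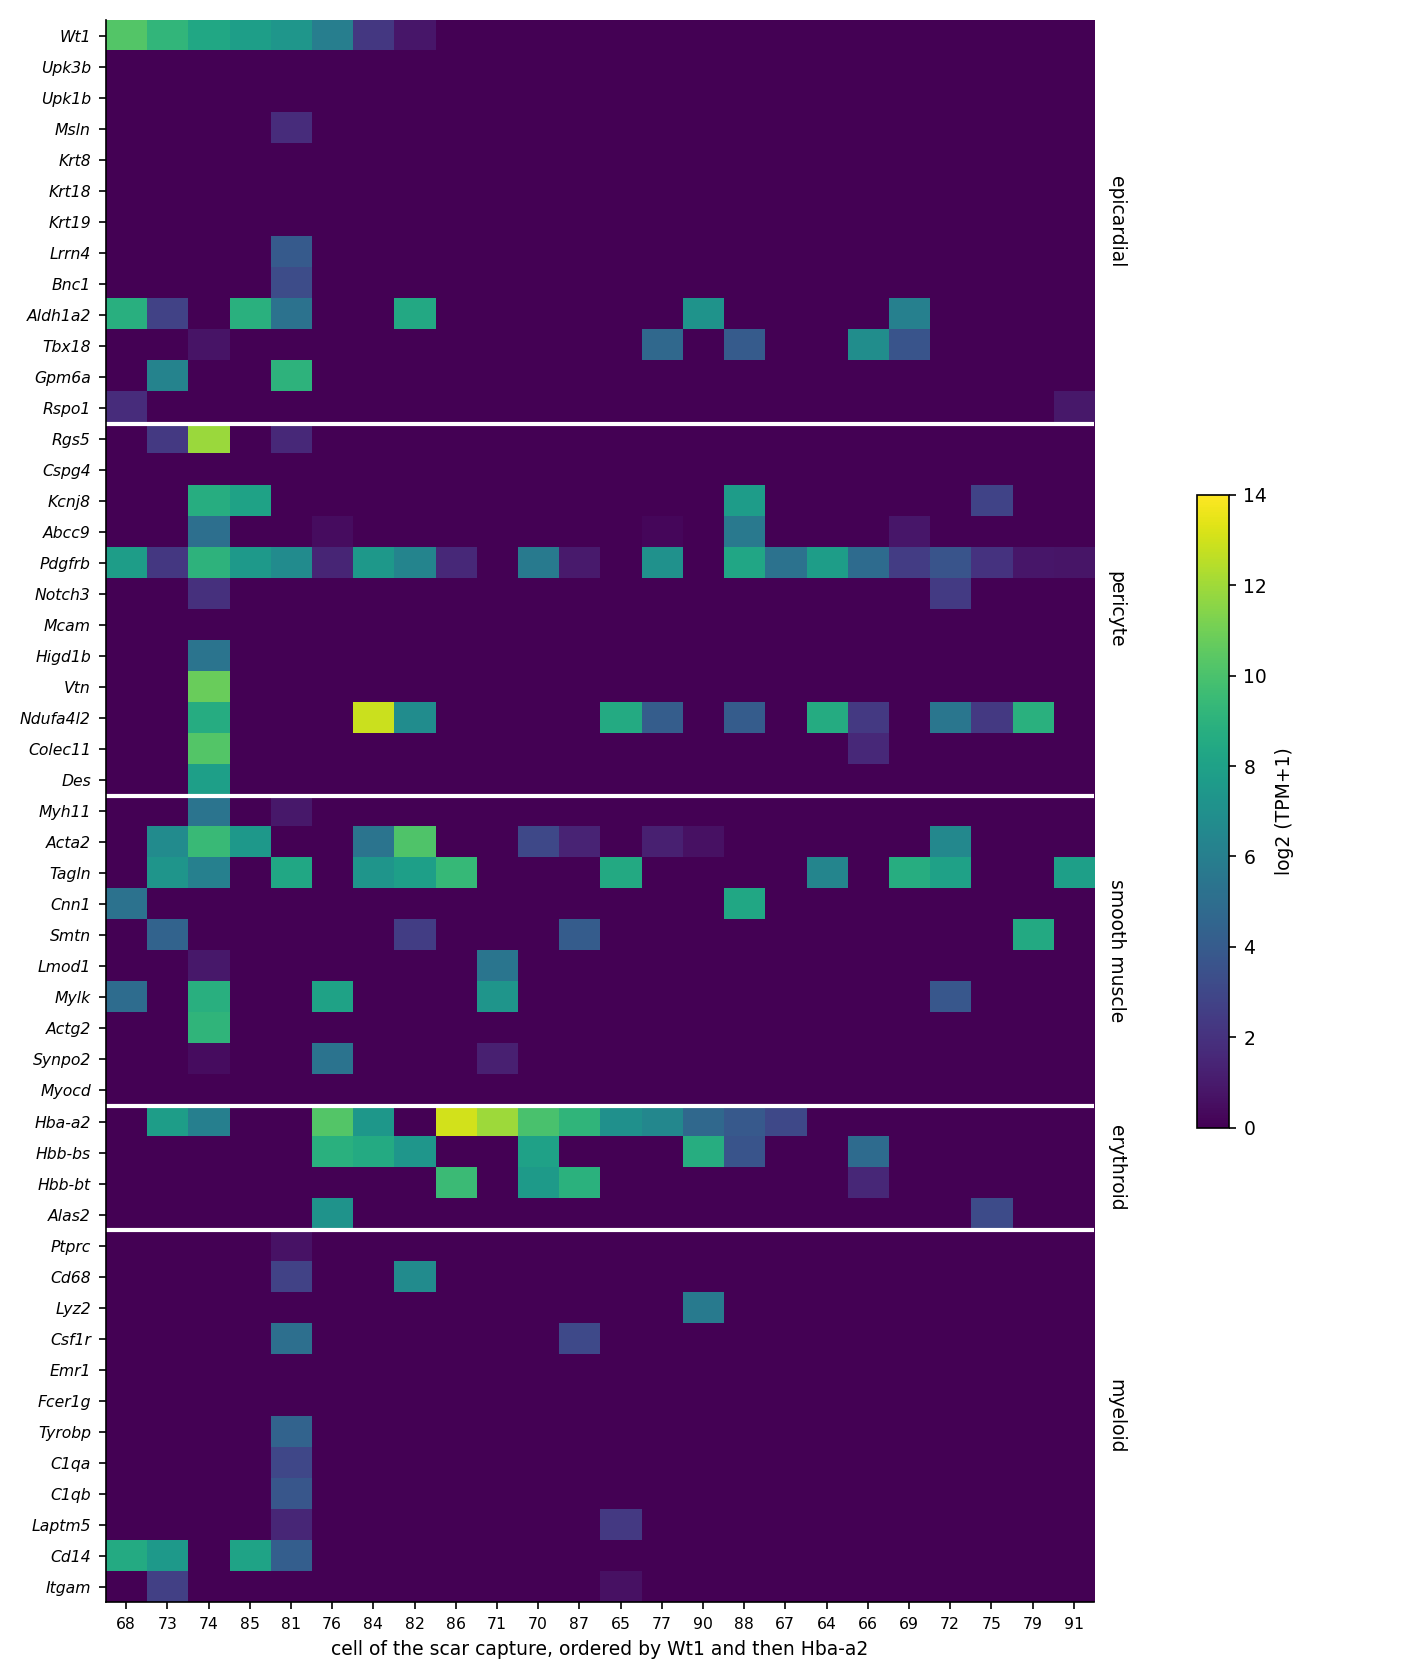
Log2 (TPM+1) of epicardial, pericyte, smooth muscle, erythroid and myeloid markers in each of the 24 untraced scar cells. Columns carry the cell numbers of the labels and are ordered by Wt1 and then by Hba-a2, so the order of these columns follows from the values shown. Cell 74 stands out in the pericyte rows, cell 81 in the epicardial and myeloid rows.

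The map of markers by cell shows that the rarer pericyte, epicardial and myeloid markers come together in cells 74 and 81 and are scattered or missing elsewhere.

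Fibroblast markers differed no more often than other genes, and Tcf21 was the 1 that passed 1 unit. Of the 10 fibroblast markers, 0 were more than 1 unit higher (6.16% of all genes) and 1 lower (12.2%). Their median difference was -0.22, with summed levels of 24100 and 18900 TPM, led by Dcn. Tcf21 mRNA was detected in 5 of 24 scar cells (20.8%, 7.13 to 42.2%) and 26 of 44 Tcf21-traced cells (59.1%, 43.2 to 73.7%). Its lowest, median and highest values were 0, 0 and 9.53 and 0, 4.29 and 10.88, a difference in means of -2.18. The classes overlap, and the highest scar cell lies among the upper Tcf21-traced cells. The Tcf21-traced class is defined by past activity of this gene, so a difference in Tcf21 mRNA is close to the definition of the classes. Against the 19 untraced Postn-positive cells of the other capture, Tcf21 in the scar cells was lower by less, at -0.56.

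Genes of quiescence gave no clear group result, since their shares past 1 unit lie near the all-gene shares of 6.16% higher and 12.2% lower. Of 14 genes of resting fibroblasts in the table, 1 was more than 1 unit higher and 2 lower (Tcf21 and Gstm1), with a median of -0.69. That median turned to 0.25 without the cells with Hba-a2, to 0.43 against the 19 Postn-positive cells and to 0.04 without the Tcf21-traced cells that had a Y-linked gene. The 12 genes of adventitial fibroblasts were split, with 1 higher (Ackr3, 1.16), 5 lower and a median of 0.01. The lower ones included S100a4, Ass1 (-2.29) and Ly6a (-1.93), which encodes the stem cell antigen Sca-1. The mean TPM of Ly6a lay close in the classes, at 1590 in scar and 1580 in Tcf21-traced cells. Pi16, a marker of adventitial fibroblasts, was at 5.89 against 5.20.

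Other developmental factors were mixed. Among 9 cardiac and epicardial transcription factors, Wt1 was the 1 gene higher by more than 1 unit (6.16% of all genes). Tcf21, Tbx20 (-1.61) and Mef2c (-1.54) were lower by more than 1 unit (12.2% of all genes), and the median was -0.45. Gata6 was detected in 16 of 24 and 25 of 44 cells. Among 9 factors of mesenchymal transition the median was -0.32, with 0 higher and 1 lower, Zeb1 (-2.21), a repressor of epithelial genes.

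Red cell transcripts were commoner in the scar cells than in the Tcf21-traced cells. Of the 6 erythroid markers listed, 4 are in the table. Of these, 3 were more than 1 unit higher (6.16% of all genes), with a median difference of 1.51. Hba-a2, an alpha globin, was detected in 13 of 24 scar cells (54.2%, 32.8 to 74.4%) and 1 of 44 Tcf21-traced cells. Its lowest, median and highest values were 0, 3.47 and 13.03 against 0, 0 and 5.79, and 10 scar cells stand above the highest Tcf21-traced cell. Hbb-bs was detected in 7 and 2 cells, Hbb-bt in 3 and 0, and Alas2, the first enzyme of haem synthesis in red cells, in 2 and 0. The erythroid sum averaged 796 TPM per scar cell and 2.40 per Tcf21-traced cell. At least 1 erythroid marker was detected in 16 of 24 scar cells, 2 of 44 Tcf21-traced cells, 2 of the 3 Postn-positive cells of the scar capture and 3 of 12 resident CD31- CD45- cells. At least 3 erythroid markers were held by 2 of 24 scar cells and 0 of 44 Tcf21-traced cells. Red cells carry neither CD31 nor CD45, the surface markers of the sort. Whether red cells were the source of these transcripts was not tested, nor was their part in the other differences.

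The 11 scar cells without Hba-a2 had a median of 3451 genes, against 3230.5 in all 24. The median difference of all genes was 0.10 with these 11 cells in place of the 24. Clu (4.87), Nr4a1 (3.33), H2-T23 (4.06) and S100a4 (-3.68) were still more than 2 units apart, whereas Smoc2 (-1.35), Ndufs8 (-1.63) and Serpina3n (-1.51) were not.

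Immune transcripts were few. At least 3 of 12 myeloid markers were held by 1 of 24 scar cells (4.17%, 0.105 to 21.1%) and 0 of 44 Tcf21-traced cells. That cell is number 81, which held 6 of them, among them Csf1r at 5.10, Tyrobp at 4.45 and C1qb at 3.73, with Ptprc at 0.71, below the minimum. It is also the Wt1 cell with the most epicardial markers. Cd14 was the most abundant myeloid marker of the scar cells, detected in 4 of 24, and these are the Wt1 cells 68, 73, 85 and 81. The myeloid sum averaged 45.8 TPM against 8.83, with a median difference of 0.15, and Emr1 and Fcer1g were at 0 in both classes. Of 3 lymphoid markers in the table only Cd79a was detected, in 1 scar cell, with a median difference of 0.00 and sums of 0.445 and 0.0701 TPM.

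Endothelial, muscle and glial markers seldom came together in a cell. At least 1 endothelial marker was detected in 10 of 24 scar and 19 of 44 Tcf21-traced cells. No cell of either class held 3 of the 10 endothelial markers in the table. Their sums averaged 73.1 and 51.3 TPM, led by Fabp4, with a median difference of 0.00 and with Tie1 and Emcn at 0 throughout. The 4 lymphatic markers in the table were below the minimum in every scar cell, with sums of 0.142 and 1.93 TPM and a median of -0.05. Lyve1 was the most abundant of them in the scar cells. At least 3 of 11 cardiomyocyte markers were held by 1 of 24 scar and 1 of 44 Tcf21-traced cells, with sums of 14.2 and 18.5 TPM, a median of 0.09, Tnnc1 the most abundant in scar cells and Myh6 and Ttn at 0 in them. None held 3 of 6 Schwann cell markers, whose sums were 6.98 and 3.76 TPM with a median of 0.00 and Sox10 at 0 in both classes.

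Myofibroblast matrix genes were present in the scar cells, and some differed in level from the Tcf21-traced cells. Of the 14 genes that the study draws as myofibroblast genes, 3 were more than 1 unit higher, beside 6.16% of all genes. These were Eln (1.55), Fn1 (1.44) and Mfap2 (1.26). The 2 lower, beside 12.2% of all genes, were Acta2 and Ctgf (-1.17). The median difference was 0.39. Fn1, fibronectin, had lowest, median and highest values of 6.29, 8.53 and 11.02 in scar and 0, 8.66 and 10.73 in Tcf21-traced cells, and Postn had 0, 10.41 and 13.72 and 0, 11.39 and 13.66. For both genes the classes overlap over most of their range, although no scar cell lacked Fn1. The median of Fn1 was slightly lower in the scar cells, while its mean was higher. Against the 19 Postn-positive cells of the Tcf21 capture the panel median turned to -0.49, and with all 29 scar cells to -0.49.

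The fibrillar collagens lay close in both classes. None of 11 differed by more than 1 unit, their median difference was 0.41, and it turned to -0.30 against the 19 Postn-positive cells. Col3a1 (0.99) and Col1a1 (0.93) were the highest differences. Basement membrane genes had a median of 0.00, with 1 of 15 more than 1 unit higher (6.16% of all genes) and 5 lower (12.2%). The lower ones were Col4a1 (-1.21) and Col4a2 (-1.06), the chains of the common collagen IV trimer, with the laminins Lama2 and Lamc1 and the linker Nid1. Col18a1 (1.33) was detected in 6 scar cells and 0 Tcf21-traced cells.

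Some collagen maturation enzymes were lower. Of 15, 0 were more than 1 unit higher (6.16% of all genes) and 4 lower (12.2%), with a median of -0.30 and 5 above 0, beside a median of -0.16 for all genes. Pcolce, which speeds the removal of the procollagen C-propeptide, was lowest at -2.21, followed by the lysyl hydroxylase Plod3 (-1.48) and the prolyl hydroxylase subunits P4ha3 (-1.35) and P4ha2 (-1.06). Pcolce still had lowest, median and highest values of 0, 10.05 and 12.43 in scar cells against 7.99, 10.84 and 12.56, so it was abundant in both.

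Matricellular proteins, which sit in the matrix and signal to cells, had a median of -0.53. Of 15, 2 were higher by more than 1 unit (Fn1 and Thbs3, 1.31) and 3 lower (Smoc2, Sparcl1 at -2.36, and Ctgf). Without cells of either class that held a marker list other than fibroblast, that median turned to 0.16. Elastic fibre genes passed 1 unit upward more often than genes overall. They had 9 of 16 above 0, 5 more than 1 unit higher (6.16% of all genes were), 2 lower (12.2%) and a median of 0.28. Mfap4 led at 2.38, followed by Eln, Ltbp1 (1.39), Fbln1 (1.31) and Mfap2, while Fbln2 (-1.33) and Mfap5 (-1.19) were lower. The elastic fibre median turned to -0.12 against the 19 Postn-positive cells.

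Of 10 leucine-rich proteoglycans, 0 were higher and 2 lower, Aspn (-2.49) and Prelp (-1.27), with a median of -0.11. Aspn, asporin, was detected in 19 of 24 scar and 43 of 44 Tcf21-traced cells. None of 13 cartilage and bone genes passed 1 unit, with a median of -0.11. Among 13 matrix proteases and their inhibitors 3 were more than 1 unit higher (6.16% of all genes) and 2 lower (12.2%), with a median of 0.06. Mmp14, a membrane-bound collagenase, was at -2.58 and detected in 16 of 24 against 41 of 44, while Adamts1 was at 1.95 and Mmp23 at 1.29. The inhibitors went both ways, with Timp3 at 1.52 and Timp1 at -1.44. None of 16 integrins passed 1 unit (median 0.03), and Itgb1 came closest at -0.94.

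Signalling pathways differed from each other in the number of genes past 1 unit, which was 6.16% higher and 12.2% lower for all genes. Of 15 TGF-beta pathway genes 3 were higher and 2 lower, with a median of -0.07. The ligand Tgfb2 (1.51), the co-receptor Tgfbr3 (1.15) and Tgfbi (1.15) were higher, while the mediator Smad4 (-1.70) was lower.

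Of 6 PDGF pathway genes 1 was higher (Pdgfrl, 1.17) and 0 lower, with a median of 0.09. Of 12 Wnt ligands and modulators 3 were higher, beside 6.16% of all genes, and 0 lower, with a median of 0.22. These were the secreted Wnt binder Sfrp2 (1.75), the ligand Wnt4 (1.18) and Dkk3 (1.04). Notch pathway genes had a median of -0.18 with none past 1 unit. Of 10 retinoid genes only Dhrs3, which reduces retinal, was past it, at 2.43, and the median was 0.31. The mean TPM of Dhrs3 lay close in the classes, at 1210 in scar and 1150 in Tcf21-traced cells. IGF pathway genes had a median of 0.18, with none past 1 unit.

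Some chemokines and complement genes were higher. Of 16 chemokines and cytokines 3 were more than 1 unit higher and 1 lower (Cxcl16, -1.10), with a median of 0.33 and 10 above 0, beside 6.16% of all genes more than 1 unit higher. Cxcl1, which attracts neutrophils, was detected in 23 of 24 scar and 31 of 44 Tcf21-traced cells, with lowest, median and highest values of 0, 10.45 and 13.65 against 0, 9.37 and 13.16. The ranges coincide, and values near 0 are commoner in the Tcf21-traced cells. Ccl7 (1.49) and Cxcl10 (1.23) were the others. Of 11 complement genes 4 were higher and 0 lower, with a median of 0.82 and 10 above 0. The Postn-positive cells of the same captures ran the other way, with a median difference over these 11 genes of -1.23 between captures.

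C4b led the complement genes at 2.67, detected in 9 of 24 scar (37.5%, 18.8 to 59.4%) and 3 of 44 Tcf21-traced cells (6.82%, 1.43 to 18.7%). Its lowest, median and highest values were 0, 0 and 10.34 and 0, 0 and 8.81, so most cells of both classes are at 0. C2 (1.57) and C1ra (1.05) were also past 1 unit. C4b and C2 were at 0 in the 3 Postn-positive cells of the scar capture.

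Immediate early genes were the group with the highest median among the lists of more than 4 genes. Of these 16 genes, which are switched on within minutes of stimulation and also by tissue dissociation, 9 were more than 1 unit higher and 0 lower, with a median of 1.37, where 6.16% of all genes were higher. After Nr4a1 came Ier3 (2.15), Junb (2.10), Btg2 (1.70) and Atf3 (1.65). Fos had lowest, median and highest values of 0, 11.01 and 13.18 against 0, 11.05 and 12.42, which overlap widely. In the Postn-positive cells the median of the 16 differences between captures was 1.17, again higher in the scar capture. Without the scar cells with Hba-a2 the main median was smaller, at 0.83.

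Heat shock genes had a median of 0.67, with 5 of 12 more than 1 unit higher, beside 6.16% of all genes, and 0 lower. The co-chaperone Bag3 led at 2.13, before Dnajb1 (1.73) and Hspa1a (1.39). Of 17 genes of apoptosis and stress 6 were higher by the same step and 0 lower, with a median of 0.42. Gadd45b was joined by the survival factor Bcl2 (2.12), Gadd45g (1.80), the cell cycle inhibitor Cdkn1a (1.78), Hmox1 and Sqstm1.

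Interferon-responsive genes were higher in part. Of 20, 6 were more than 1 unit higher (6.16% of all genes) and 1 lower (Isg20, -1.41), with a median of 0.65. Gbp2 (1.90), Usp18 (1.77) and Iigp1 (1.55) led. The classical members Isg15 and Ifit1 were each detected in 3 of 24 scar and 1 of 44 Tcf21-traced cells. Of 10 MHC class I genes 1 was higher (H2-T23) and 0 lower, with a median of 0.54 that turned to -0.30 with all 29 scar cells. B2m, the invariant light chain, was at 10.33 and 10.39.

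Some genes of mitochondria and of the secretory pathway were lower in the 24 scar cells. Of 21 genes of oxidative phosphorylation 10 were more than 1 unit lower and 0 higher, with a median of -0.89, where 12.2% of all genes were lower and 6.16% higher. The lowest were Cox5a (-2.42), Uqcrc1 (-2.25) and Ndufa4 (-2.10, but 0.06 with medians over cells), subunits of the respiratory chain. Of 20 secretory pathway genes 8 were lower and 0 higher, with a median of -0.92, led by the disulfide isomerase Pdia6 (-2.41, but 1.01 without the cells with Hba-a2) and Ssr4 (-1.74). Without the cells with Hba-a2 these medians were -0.37 and 0.07, so the secretory difference did not hold in the 11 cells that lack Hba-a2.

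Actin genes had a median of -0.48, with 0 of 22 more than 1 unit higher (6.16% of all genes) and 6 lower (12.2%). Without the cells with Hba-a2 the median was 0.03. Cnn2 (-2.32) and the myosin light chain Myl6 (-1.37) were lowest. The 10 housekeeping genes had a median of -0.37, with 1 lower (Ppia, -1.47) and 0 higher, and the median turned to 0.19 in the 11 cells. Glycolysis and hypoxia genes went both ways, with 4 of 20 higher (6.16% of all genes), 5 lower (12.2%) and a median of -0.29. Pgk1 (-2.42) and Aldoa (-2.31), enzymes of lower and upper glycolysis, were lower, whereas the hexokinase Hk2 (1.83) was higher.

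Of 16 lysosomal and phagocytic genes 1 was higher (Gas6, 1.22) and 2 lower, with a median of -0.21. Axl, a receptor for Gas6, was at -2.18, detected in 16 of 24 and 43 of 44 cells, but was at 0.39 without the cells with Hba-a2. Cell cycle genes gave values that point in more than 1 direction. Of 30, 0 were higher and 1 lower (Cdk1, -1.07), with a median of -0.38, so the share past 1 unit lower lies below the 12.2% of all genes. Only 1 of the 30 was above 0, against 41.4% of all genes, and 9 were detected in no scar cell against 0 in no Tcf21-traced cell. Their summed level averaged 254 TPM against 629, while the medians of the sum were 213 and 84.4 TPM. Mki67, a marker of cycling cells, was detected in 1 of 24 scar and 6 of 44 Tcf21-traced cells.

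**Figure D5:**
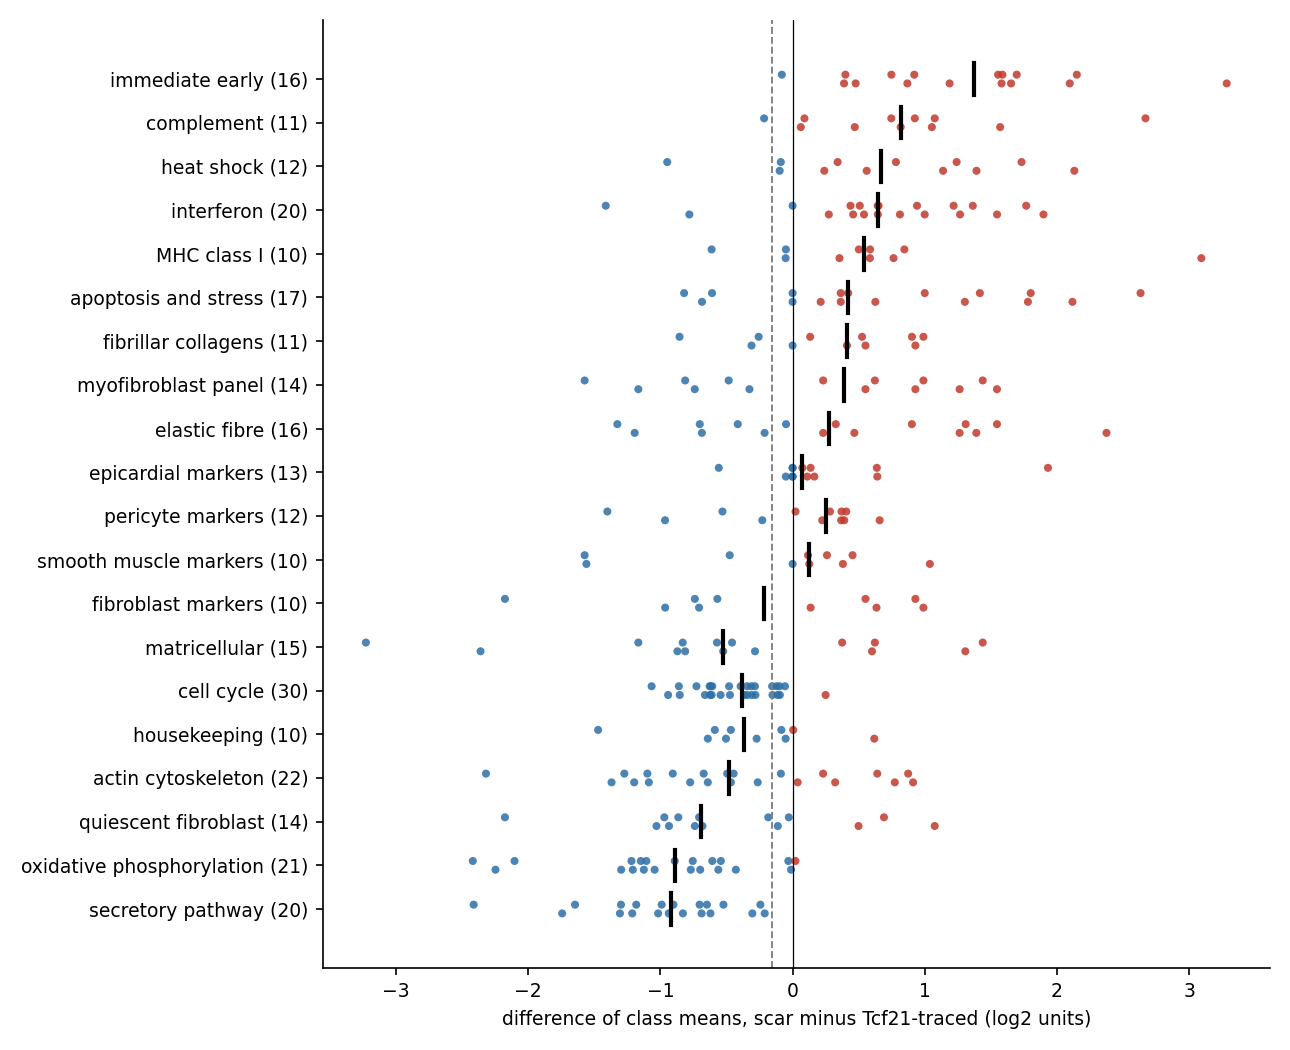
Difference of class means for each member of 20 gene lists, with the number of members in the table in brackets. Red points are higher and blue points lower or equal in the scar cells, black bars are list medians, and the dashed line is the median of all 9063 genes.

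The plot of list members shows that immediate early genes lie almost all to the right of the genome median and secretory and mitochondrial genes mostly to the left, while the epicardial, pericyte and smooth muscle markers gather around 0. List members were counted whether or not they were among the 9063 genes. For comparison, the Postn-positive cells of the scar capture minus those of the Tcf21 capture gave list medians of -0.95 for oxidative phosphorylation, -1.38 for the secretory pathway, -0.48 for actin genes, -0.12 for elastic fibres, 0.25 for heat shock, 0.00 for interferon and 1.41 for cell cycle genes. Elastic fibre and cell cycle medians thus ran opposite to those of the scar cells.

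Several list medians changed direction with the choice of cells or scale. The fibroblast median was below 0 as given, but was 0.40 with medians over cells, 0.24 with linear means and 0.44 without the cells with Hba-a2. With all 29 scar cells the fibrillar collagens (-0.21), elastic fibre (-0.30) and IGF (-0.35) medians fell below 0. The proteoglycan (0.42) and lysosome (0.46) medians rose above it without the cells with Hba-a2. The TGF-beta median was 0.43 with linear means and 0.00 with cells centred on their detected genes. Adventitial genes, matrix proteases, PDGF genes and integrins changed sign around medians below 0.1 in size.

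Sex-linked genes differed between the classes, and the labels give no sex for any mouse. No scar cell had any of 4 Y-linked genes above the minimum (0 of 24, up to 14.2%), and 18 of 24 had Xist, the RNA that silences an X chromosome in female cells. In the Tcf21-traced cells a Y-linked gene was detected in 14 of 44 (31.8%, 18.6 to 47.6%), Xist in 19 and both in 3. The 3 Postn-positive cells of the scar capture all had Xist and no Y-linked gene, whereas the 19 of the Tcf21 capture divided into 12 with Xist, 5 with a Y-linked gene and 2 with neither. Among the 5 sex genes 1 was more than 1 unit higher (Xist, 1.31), beside 6.16% of all genes. The 2 lower, beside 12.2% of all genes, were Ddx3y and Eif2s3y, and the median was -0.33. With the 14 Tcf21-traced cells that had a Y-linked gene left out, 73 genes were more than 2 units higher and 182 lower.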

How the data were processed

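The deposited table holds log2 (TPM+1) values, which the authors made before deposit. Its header calls them TPM and its title FPKM, and after undoing the log2 the cells sum to between 999257 and 1000000, so they were read as TPM. The submitters' processing notes name Bowtie 1.0.0, eXpress 1.5.1 and mm10, without stating the role of each. No reads were at hand, so the number of genes above 5 TPM stood in for depth. All 185 sample columns were read as part of the table, and 3 gene annotation columns were not used.

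Class values are means over cells, and shares have exact 95% binomial intervals. Genes above 5 TPM in at least 10% of the cells of either class were compared. Leading genes needed at least 50% of the cells with the higher mean, 15 per direction. A cell holds a list with at least 3 of its markers above 5 TPM. The 11 marker lists were epicardial, pericyte, smooth muscle, fibroblast, endothelial, lymphatic endothelial, myeloid, lymphoid, cardiomyocyte, Schwann cell and erythroid. A further 35 gene groups cover matrix, fibroblast states, transcription factors, signalling, immunity, stress, metabolism, cytoskeleton, cell cycle, sex and housekeeping genes. Members and lists were chosen from general knowledge with earlier results of these data known, and the myofibroblast panel is the study's own.

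Alternatives named before the values were read changed the cells kept, the class summary, the pseudocount, the centring of cells, the comparison class, the genes counted and the detection minimum. The alternatives with a minimum of 2000 genes, without Tcf21-traced cells with a Y-linked gene and without scar cells with Hba-a2 were added after the data were seen. Leaving out the scar cells with Wt1 was also tried, and dropped after its values were seen because it selects cells by the gene under study. The scripts were tested on simulated data. Tools were pandas 2.3.3, NumPy 2.4.6, Matplotlib 3.10.9 and SciPy 1.17.1 under Python 3.11.15.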

Additional observations from a re-analysis of the deposited data

How the results depend on the processing

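The counts of genes more than 2 log2 units higher and lower in the scar cells, 52 and 131 as given, depended strongly on the settings. They were 8 and 424 with all 29 scar cells, 252 and 586 with medians over cells, 703 and 837 with linear means, 232 and 535 with a pseudocount of 0.1 and 12 and 20 with 5. Against the 19 Postn-positive cells they were 103 and 287. They were 107 and 147 with Tcf21-traced cells nearest in gene number, 132 and 132 without holders of a list other than fibroblast and 101 and 96 with at least 2000 genes per cell, so the surplus of lower genes was lost in the last 2. Without the scar cells with Hba-a2 it turned round, with 258 and 82. Leaving out each scar cell in turn gave 49 to 70 genes higher and 105 to 156 lower. The share of genes detected per scar cell rose from 18.8 to 27.5% when any value over 0 counted. Without the cells with Hba-a2, the differences of Pdia6 (1.01) and Axl (0.39) reversed, and that of Hba-a2 (-0.13) did so by construction. The difference of Ndufa4 reversed with medians over cells (0.0585). Of 8940 values of 596 named genes over 15 settings, 8406 shifted by no more than 1 SD between cells, 530 by more and 4 reversed. A change of sign was counted as reversed only for genes more than 2 log2 units apart as given. Changes of sign in all other genes were not counted as reversed, whatever their size. Of 690 list medians 7 shifted by more. The SD between single cells is a wide measure, so these counts do not show that values are stable: the myofibroblast panel median went from 0.39 to -0.49 with all 29 scar cells within it. Wt1 was detected in 7 of 24 scar and 3 of 44 Tcf21-traced cells above 1 TPM, in 8 and 4 above 0 and in 6 and 1 above 10 TPM. The median difference of all genes ran from -0.42 with all 29 scar cells to 0.10 without the cells with Hba-a2. The causes of these shifts were not tested.

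Each class comes from 1 capture, as read from the cell names. The mice behind the cells are not named, so capture, mouse and kind of cell cannot be told apart. The spread between cells includes dropout, and a 0 in 1 cell does not mean that the transcript was absent. The tracer allele and the time after MI of the scar cells are not in the labels, and untraced cells can include cells in which Cre did not recombine. How reads were shared among near-identical globin and MHC genes is not given. Lists were chosen with earlier results known.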
